A study of Mus musculus with 16 samples.

Results

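The genes described here are 10 members of the Bcl2 family, the proteins that set the threshold at which a cell dies through its mitochondria. They are Bcl2, Bcl2l1, Mcl1, Bcl2a1b and Bcl2a1d, which protect cells, Bcl2l11, Bbc3 and Pmaip1, which start death, and Bax and Bak1, which carry it out. They were chosen by symbol from the 27928 genes of the RNA-seq table, and all 10 were found and passed the filter on low counts that left 14761 genes for testing. RNA was sequenced from B cells sorted from mouse spleen as follicular (FO, CD21lo CD23hi) and marginal zone (MZ, CD21hi CD23lo) cells, of WT and cKO mice, and each of these 4 groups holds 2 libraries. The animals were of the C57BL/6 strain and 8 to 12 weeks old. The cKO mice carried floxed alleles of Gtf2i, which encodes the transcription factor TFII-I, on both chromosomes (Gtf2i fl/fl) together with a Cre that is active in the B lineage, so that the deletion is limited to B lineage cells. WT mice carried neither. Nothing in the sources used here says that the libraries of a group came from separate animals, so the p-values measure only the spread between these libraries.

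Bcl2 family proteins meet at the outer membrane of the mitochondrion. Bax and Bak1 open pores in it and release cytochrome c, the antiapoptotic proteins hold them in check, and the BH3-only proteins, named after the single short domain they share with the rest, bind the antiapoptotic proteins and set Bax and Bak1 free. Mature B cells depend on survival signals from the B cell receptor and from the cytokine BAFF, and Mcl1 and the BH3-only protein Bim, which Bcl2l11 encodes, are well known for setting how many of them live. FO B cells recirculate through the follicles of lymphoid organs, while MZ B cells stay beside the marginal sinus of the spleen and respond quickly to blood-borne antigens.

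Values are normalized counts, in which the reads on a gene are divided by the size factor of the library. A difference is log2(normalized count + 1) in one group minus that in another, so that low genes are understated, and it was fitted by limma over all genes tested with the 8 libraries in a single fit. A gene counted as called where its p, adjusted after Benjamini and Hochberg over all genes tested, did not exceed 0.05 and its change reached 1.5-fold. With 2 libraries against 2 an exact two-sided permutation test of a single gene cannot go below 0.333, so the p-values given depend on a spread that limma estimates across all genes.

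The libraries held 21546552 to 25083552 reads on genes. Their subset labels were borne out by both sorting markers. Fcer2a, which encodes CD23, lay between 24802 and 41973 normalized counts in the FO and between 3069 and 6708 in the MZ libraries, and Cr2, which encodes CD21, between 22942 and 26803 in the FO and between 86953 and 97087 in the MZ libraries. Gtf2i was lower in each cKO library than in each WT library of the same subset, with a log2 difference of -0.47 over both subsets (standard error 0.067, limma adjusted p = 0.0793), from counts over the whole gene that do not separate the deleted exons. Xist, transcribed in female cells, was at 25929 to 47002 in WT, but in cKO it reached 14748 in FO replicate 1 and did not exceed 89.7 otherwise. The Y-linked Ddx3y did not exceed 6.34 in WT and started at 2682 in cKO. Genotype and sex-linked transcripts therefore cannot be told apart. Another 2 features set libraries apart. The sums of 10 granulocyte and 6 erythroid markers reached 1945 and 13250 in cKO MZ replicate 1, against at most 129 and 1007 elsewhere, and Xist and Y-linked genes occurred together in cKO FO replicate 1.

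Between these genes the level spanned more than 2 orders of magnitude. Because longer transcripts give more reads, genes were compared with each other only as normalized counts per kb of exon. On that scale Mcl1, a short-lived antiapoptotic protein, was the highest in every library, at 4106 to 7127 with a mean of 5778 over the 8 libraries. Pmaip1, which encodes Noxa, a BH3-only protein that binds mainly Mcl1, came next with a mean of 1001, followed by Bax with 938, Bcl2 with 398.6 and Bak1 with 294. Bcl2l11 had a mean of 255 and Bcl2a1b of 233 per kb. The lowest were Bbc3, which encodes Puma, at 82.5, Bcl2a1d at 76.2 and Bcl2l1, which encodes Bcl-xL, at 20.4. Neighbours in this order mostly overlapped over the 8 libraries. Only the steps from Mcl1 to Pmaip1 and from Bax to Bcl2 left no overlap between the ranges, and Pmaip1 lay above Bax in 4 of the 8 libraries.

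**Figure D1:**
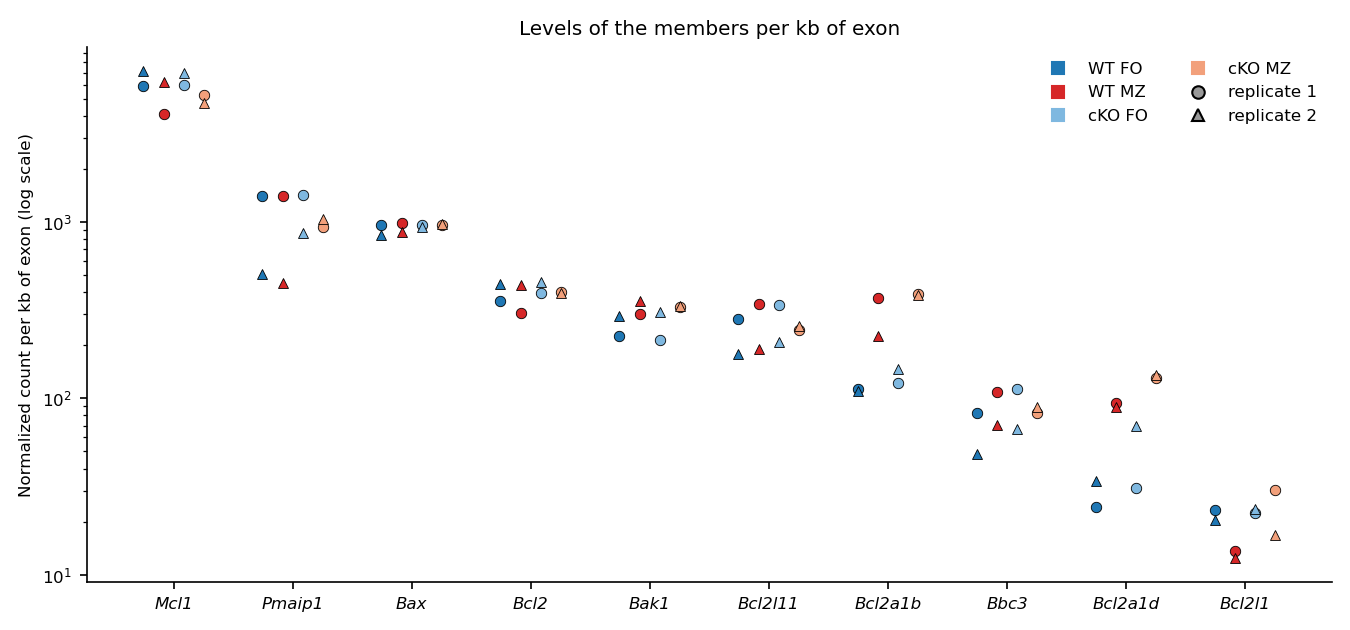
Level of each of the 10 genes in each of the 8 RNA libraries, as normalized count per kb of exon on a log axis, with genes ordered by their mean, colours for the 4 groups and a circle or triangle for replicate 1 or 2. Mcl1 lies between 4106 and 7127 in every library, above all points of the other genes, and Bcl2l1 lies between 12.4 and 30.4.

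Mcl1 made up 83.4% to 92.1% of the summed antiapoptotic level per kb, and its share was 91.0% to 92.1% in the FO and 83.4% to 89.0% in the MZ libraries. The other 4 antiapoptotic genes summed to 516 to 694 per kb in the FO and to 765 to 952 in the MZ libraries. These shares and sums take the counts of Bcl2a1b and Bcl2a1d as given. The levels of these copies, and their places in the order above, are uncertain because they share much of their sequence. The summed level of the antiapoptotic genes was 2.65 to 10.5 times that of the 3 BH3-only genes. It was lowest in WT MZ replicate 1 and highest in WT FO replicate 2, and with 3.60 and 10.5 in the replicates of WT FO it did not separate the groups.

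Of the 10 members, the antiapoptotic genes Bcl2a1b and Bcl2a1d differed between the subsets, and both were higher in MZ B cells. They encode copies of A1, a small antiapoptotic protein of hematopoietic cells that NF-kB signaling is known to induce. The mouse genome holds them as near-identical copies on chromosome 9, Bcl2a1d at chr9:88723285-88731914 on the minus strand and Bcl2a1b at chr9:89199209-89207827 on the plus strand (GRCm38, GENCODE M21), with the copies Bcl2a1a and Bcl2a1c on the same chromosome. The first 60 coding bases of the 4 copies are shown because they make plain how few letters tell the copies apart for a read. Capitals mark the 6 positions at which the 4 are not all the same.
Bcl2a1a: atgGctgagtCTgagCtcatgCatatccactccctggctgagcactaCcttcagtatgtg
Bcl2a1b: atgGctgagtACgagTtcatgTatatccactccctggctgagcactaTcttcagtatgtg
Bcl2a1c: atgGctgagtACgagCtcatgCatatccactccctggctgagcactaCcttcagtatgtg
Bcl2a1d: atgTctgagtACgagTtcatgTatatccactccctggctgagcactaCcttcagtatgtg
Here Bcl2a1b (chr9:89199360-89199419) and Bcl2a1d (chr9:88731660-88731719, read from the minus strand) differ at 2 bases. Of the 768 stretches of 50 bases in the Bcl2a1b transcript, the length of the reads, 57.6% occur unchanged in another copy, all of those in Bcl2a1d, and of the 814 in the Bcl2a1d transcript 79.5% occur in another copy. How the authors' counting treated reads that match several copies is not given in the sources used here. The split of reads between Bcl2a1b and Bcl2a1d is therefore uncertain, and so is their summed level if such reads were left out. The other copies were below the filter, with at most 3.09 normalized counts of Bcl2a1a and 8.67 of Bcl2a1c in any library.

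In WT FO B cells Bcl2a1b was at 91.8 and 90.4 normalized counts, and in WT MZ B cells at 304 and 185. In cKO it was at 99.7 and 119.8 in FO and at 319 and 313 in MZ. All 4 MZ libraries lay above all 4 FO libraries. In such bulk samples, more cells of a kind that express a gene and more RNA of it per cell cannot be told apart. FO minus MZ was -1.37 in WT (standard error 0.246, limma adjusted p = 0.00905), -1.52 in cKO (standard error 0.246, adjusted p = 0.00506) and -1.45 over both genotypes (standard error 0.174, adjusted p = 0.00067), or 2.73-fold higher in MZ. Fitted on the 4 WT libraries alone, the difference in WT was no longer called (adjusted p = 0.064). Over both genotypes its adjusted p did not exceed 0.00586 under any alternative, each library left out included.

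Bcl2a1d had fewer counts and differed in the same direction. In WT the FO libraries had 20.96 and 29.5 normalized counts and the MZ libraries 80.9 and 76.98, while in cKO the FO libraries had 26.9 and 60.4 and the MZ libraries 113 and 118. Here too the 4 FO libraries and the 4 MZ libraries did not overlap. FO minus MZ was -1.63 in WT (standard error 0.389, limma adjusted p = 0.027), -1.49 in cKO (standard error 0.389, adjusted p = 0.0335) and -1.56 over both genotypes (standard error 0.275, adjusted p = 0.00397), or 2.94-fold higher in MZ. Over both genotypes the call held under every alternative, but within a genotype it depended on single libraries. The WT call was lost on the 4 WT libraries alone (adjusted p = 0.0512) and the cKO call with no filter (0.0533) or quantile normalization (0.0637). Likewise the WT call was lost without WT FO replicate 1 (adjusted p = 0.123), WT MZ replicate 1 (0.101), WT MZ replicate 2 (0.084), cKO MZ replicate 1 (0.0566) or cKO MZ replicate 2 (0.0571), and the cKO call without cKO FO replicate 1 (0.142), where the log2 difference fell to -0.92, cKO MZ replicate 1 (0.149) or cKO MZ replicate 2 (0.142).

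Because reads can move between copies, the normalized counts of Bcl2a1a, Bcl2a1b, Bcl2a1c and Bcl2a1d were also summed and fitted as 1 gene. This alternative was chosen after seeing the data. The sum differed between FO and MZ by -1.48 over both genotypes (limma adjusted p = 0.00048), by -1.43 in WT and by -1.52 in cKO, so that the direction did not rest on the split. The ratio of Bcl2a1b to Bcl2a1d counts lay between 1.98 and 4.38 over the libraries and overlapped between the subsets.

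The difference between the subsets called 12% of all genes tested in WT, 13.7% in cKO and 18.4% over both genotypes, 10.9% higher in MZ and 7.45% higher in FO. Against this background 2 of the 10 members were called in each, both higher in MZ. The 4 FO and 4 MZ libraries did not overlap for 36.5% of all genes and for 2 of the 10 members. The median log2 difference of the 10 over both genotypes was -0.04, beside 0.0045 for all genes. The sum of 5 NK cell markers was 89.6 to 351 in the FO and 391 to 559 in the MZ libraries. Of these markers 1 was called over both genotypes, higher in MZ. Their median log2 difference, FO minus MZ, was 0.62 in WT and -0.52 in cKO. The sum of 7 dendritic cell markers was 191 to 269 in FO and 310 to 515 in MZ. Of the 5 tested, 2 were called higher in MZ over both genotypes. The part of NK and dendritic cells in the difference of the Bcl2a1 genes was not tested. The granulocyte marker sum was 1945 and 129 in cKO MZ replicates 1 and 2, where Bcl2a1b was at 319 and 313. The part of granulocytes in these values was not tested either.

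**Figure D2:**
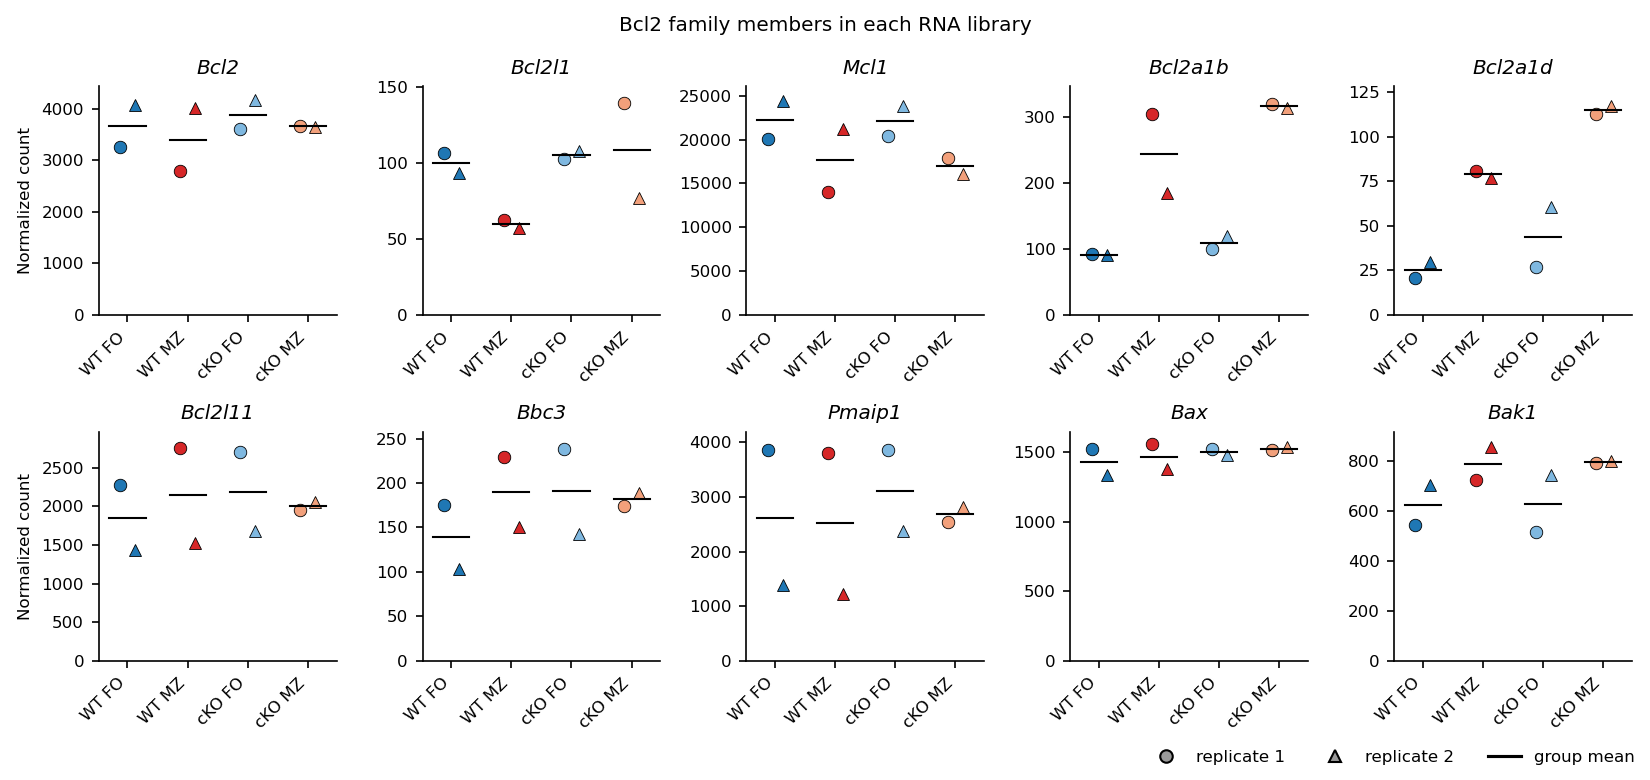
Normalized counts of the 10 genes in each library, 1 panel per gene with its own axis from 0, with circles for replicate 1, triangles for replicate 2 and lines at the group means (n = 2). Bcl2a1b and Bcl2a1d are higher in the 4 MZ than in the 4 FO libraries, while Pmaip1 spans 1229 to 3849 within WT alone.

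The promoters of both copies are shown because both members were called higher in MZ. They are windows from 250 bases before to 50 bases after the RefSeq start of each gene (GRCm38.p6), which differs from the GENCODE start given above. Capitals mark bases that differ or are missing in the other copy where the windows overlap.
Bcl2a1b: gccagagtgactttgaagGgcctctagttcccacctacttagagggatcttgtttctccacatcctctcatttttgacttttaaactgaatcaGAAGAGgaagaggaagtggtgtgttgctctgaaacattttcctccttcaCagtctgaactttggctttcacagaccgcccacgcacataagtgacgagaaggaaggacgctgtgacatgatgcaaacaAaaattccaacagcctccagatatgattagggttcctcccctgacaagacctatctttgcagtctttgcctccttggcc
Bcl2a1d: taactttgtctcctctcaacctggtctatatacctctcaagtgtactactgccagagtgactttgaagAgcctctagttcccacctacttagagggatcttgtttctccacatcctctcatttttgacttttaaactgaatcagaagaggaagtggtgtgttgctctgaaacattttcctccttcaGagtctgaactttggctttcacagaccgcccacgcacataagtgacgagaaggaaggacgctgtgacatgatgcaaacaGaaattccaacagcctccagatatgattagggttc
These windows, chr9:89199023-89199322 and chr9:88731801-88732100 on the minus strand, overlapped over 256 aligned positions, of which 247 (96.5%) were identical, 3 differed and 6 were present in Bcl2a1b only. A search of both strands for 3 short motifs, in which N stands for any base, found GAGGAAGT, a form of the ETS motif that PU.1 binds, in both windows and in that of Bak1, and in 3.2% of all 32851 windows. TGANTCA, a loose form of the AP-1 motif, was also matched in both, with A in place of N, and in 7.81% of all windows. Such a match does not establish an AP-1 site. The matches of GAGGAAGT and TGANTCA did not overlap each other. GGGANTTTC, a form of the NF-kB motif, was in none of the 14 windows of 9 members and in 1.11% of all.

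Mcl1 and Bcl2 were abundant in all groups and neither was called between the subsets. Mcl1 (chr3:95658788-95663176, plus strand) had 20049 and 24360 normalized counts in the FO and 14035 and 21250 in the MZ libraries of WT. In cKO the FO libraries had 20454 and 23877 and the MZ libraries 17914 and 16043. The WT groups overlapped and the cKO groups did not. FO minus MZ was 0.36 in WT (limma adjusted p = 0.278), 0.38 in cKO (adjusted p = 0.223) and 0.37 over both genotypes (standard error 0.141, 95% interval 0.042 to 0.70, adjusted p = 0.0807). Without WT MZ replicate 2, the difference in WT was 0.65 and was called (adjusted p = 0.0471). Bcl2 (chr1:106538178-106714274, minus strand), the founding member of the family, had 3264 and 4078 in the FO and 2783 and 4006 in the MZ libraries of WT, and 3604 and 4158 in the FO and 3671 and 3636 in the MZ libraries of cKO. The subsets overlapped in both genotypes, and FO minus MZ was 0.11 over both genotypes (95% interval -0.19 to 0.40, limma adjusted p = 0.562).

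Bcl2l1 (chr2:152780668-152831728, minus strand) was the scarcest antiapoptotic member per kb. The FO libraries of WT had 107 and 93.2 normalized counts and the MZ libraries 62.6 and 57.1, and these groups did not overlap. FO minus MZ in WT was 0.73 (standard error 0.293, 95% interval 0.049 to 1.41) but was not called (limma adjusted p = 0.14). In cKO it had 103 and 108 normalized counts in FO and 139.5 and 77.3 in MZ, and the difference was 0.02 (95% interval -0.66 to 0.70, adjusted p = 0.974). The test of whether the subset difference depends on genotype gave -0.71 for cKO minus WT (95% interval -1.67 to 0.25, limma adjusted p = 1.00). Without cKO MZ replicate 1, in which the granulocyte and erythroid markers were high, it was -0.29 and FO minus MZ in cKO was 0.44, and without cKO MZ replicate 2 they were -1.13 and -0.40.

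None of the 3 BH3-only genes was called, and in every group but cKO MZ their replicates lay far apart. Pmaip1 had 3849 and 1388 normalized counts in replicates 1 and 2 of FO and 3810 and 1229 in those of MZ from WT. From cKO, FO had 3858 and 2367 and MZ 2546 and 2822. Replicate 1 was higher than replicate 2 in the first 3 groups, by 2.77-fold in WT FO and 3.10-fold in WT MZ, more than for 96.7% and 97.5% of all genes tested. FO minus MZ over both genotypes was 0.13, with a 95% interval from -0.84 to 1.11 (limma adjusted p = 0.833), an interval that takes in changes of 1.5-fold in either direction.

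Bcl2l11 (chr2:128126038-128162547, plus strand), whose product Bim binds all antiapoptotic members, showed the same order of replicates. From WT, FO had 2273 and 1436 normalized counts and MZ 2757 and 1531, and from cKO, FO had 2703 and 1676 and MZ 1948 and 2059. FO and MZ overlapped in both genotypes, and FO minus MZ was -0.05 over both (95% interval -0.60 to 0.50, limma adjusted p = 0.894). Bbc3 (chr7:16308393-16318205, plus strand), a target of p53, had 176 and 103 in the FO and 229 and 150.3 in the MZ libraries of WT, beside 238.5 and 143 in the FO and 174 and 189 in the MZ libraries of cKO. Its groups overlapped as well, and FO minus MZ was -0.22 over both genotypes (95% interval -0.79 to 0.35, limma adjusted p = 0.531).

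Between replicates 1 and 2 the antiapoptotic genes Mcl1 and Bcl2 and the effector Bak1 moved the other way in WT FO, WT MZ and cKO FO, where each was lower in replicate 1. The log2 difference of Mcl1 was -0.28, -0.60 and -0.22 in these groups, beside 1.47, 1.63 and 0.70 for Pmaip1. As a description, the level per kb of Mcl1 was therefore 4.16 and 14.0 times that of Pmaip1 in the WT FO libraries and 2.94 and 13.8 times in the WT MZ libraries, but 5.62 and 4.54 times in cKO MZ. Atf3 and Ddit3, stress-induced transcription factors singled out after their values were seen, followed the same order. Atf3 had 1421 and 147 normalized counts in FO and 6474 and 693 in MZ from WT, beside 1306 and 574 in FO and 2295 and 3947 in MZ from cKO, and Ddit3 was 2.11-fold and 3.12-fold higher in replicate 1 of WT FO and WT MZ. Not every stimulus-induced gene did so, since Fos was lower in replicate 1 of all 4 groups, by log2 differences of -0.88, -0.78, -0.38 and -0.09 in WT FO, WT MZ, cKO FO and cKO MZ. The sum of 6 plasma cell markers followed the order of Pmaip1, with 32524 and 14867 normalized counts in FO and 41216 and 20381 in MZ from WT, and 31745 and 28113 in FO and 26784 and 37193 in MZ from cKO. The part of these differences between libraries in the values of the BH3-only genes was not tested.

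**Figure D3:**
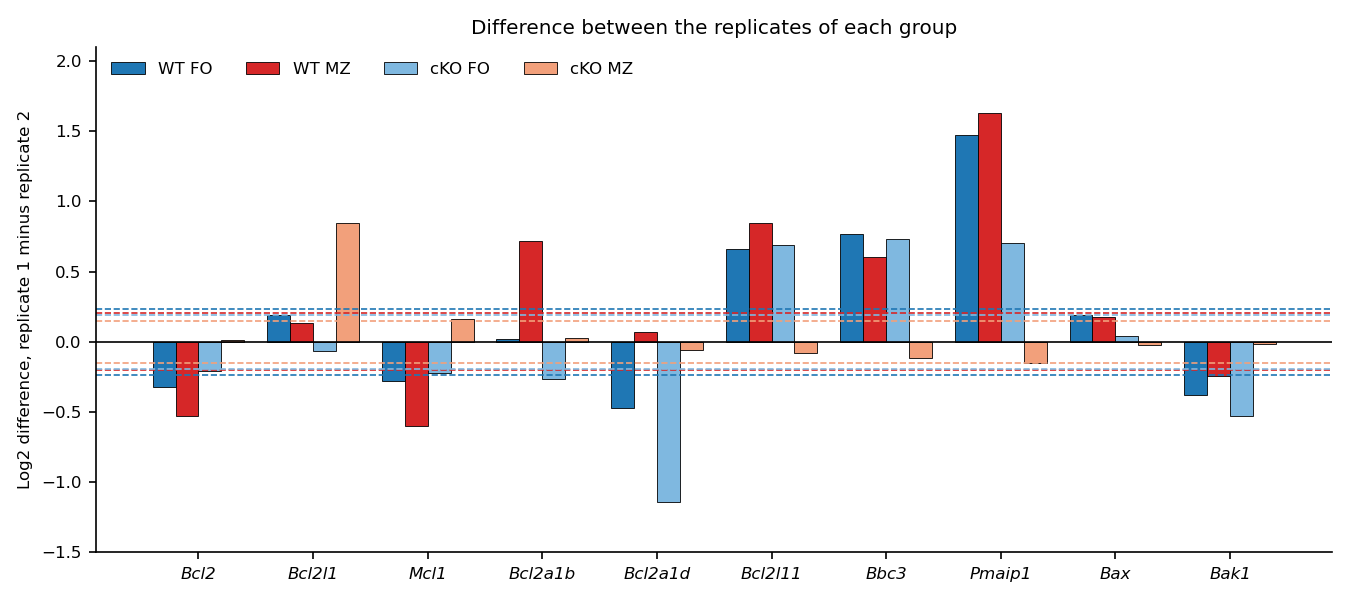
Log2 difference between replicate 1 and replicate 2 of each gene in each of the 4 groups (bars), with dashed lines at plus and minus the median absolute difference of all genes tested in the group, which lay between 0.15 and 0.24. Bcl2l11, Bbc3 and Pmaip1 rise above the lines in WT FO, WT MZ and cKO FO, and lie just below 0 in cKO MZ.

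Bax and Bak1, the effectors, were not called either. Bax (chr7:45461697-45466898, minus strand) was between 1333 and 1554 normalized counts in all 8 libraries. FO minus MZ was -0.03 over both genotypes, with a 95% interval from -0.20 to 0.14 (limma adjusted p = 0.782). Bak1 (chr17:27019810-27029009, minus strand) had 541 and 704 in the FO and 722 and 854 in the MZ libraries of WT, and 515 and 742 in the FO and 791 and 799 in the MZ libraries of cKO. Every MZ library except WT MZ replicate 1 lay above every FO library. The difference of -0.36 over both genotypes (standard error 0.141, 95% interval -0.68 to -0.03) was not called (limma adjusted p = 0.0901). Ggnbp1 overlaps Bak1 on the other strand and had 32.5 to 132 normalized counts, and whether the counting used strand is not given in the sources used here.

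The cKO libraries were then compared with the WT libraries. These groups differ in the floxed alleles, in the Cre and in sex-linked transcripts. The parts of the deletion, the Cre and sex therefore cannot be told apart for any member. None of the 10 members was called between cKO and WT by limma in MZ, in FO or over both subsets, and edgeR and DESeq2 on the recovered reads called none either. The comparisons called 0.0339%, 0.0677% and 0.108% of all genes, or 5, 10 and 16 genes, so few calls were made anywhere. In each of them 4 of the called genes were sex-linked markers, higher in cKO. At an unadjusted p under 0.05 limma found 1 member, Bcl2l1 in MZ, and none in FO or over both subsets, while edgeR and DESeq2 each found Bcl2a1d over both subsets as well. The median log2 difference of the 10 over both subsets was 0.16, beside -0.01 for all genes. No member's subset difference was called as depending on genotype, where limma called 0 of all genes and 94 had an unadjusted p under 0.05, none of them a member.

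Bcl2l1 was higher in the cKO MZ libraries, at 139.5 and 77.3, than in the WT MZ libraries, at 62.6 and 57.1. The log2 difference was 0.79 (standard error 0.293, 95% interval 0.11 to 1.47, unadjusted p = 0.0287, limma adjusted p = 0.998). It was 1.21 without cKO MZ replicate 2 and 0.37 without cKO MZ replicate 1, the library in which the sum of erythroid markers was 13250 against 797 in replicate 2. Bcl-xL is known for keeping red cell precursors alive, and the part of such cells in this value was not tested. In FO the difference of Bcl2l1 was 0.08 (95% interval -0.60 to 0.76).

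Bcl2a1b was higher in each cKO library than in each WT library of the same subset, which held for 1 of the 10 members and, in either direction, for 9.34% of all genes. Its log2 difference was 0.41 in MZ and 0.26 in FO, and 0.34 over both subsets (95% interval -0.07 to 0.74, limma adjusted p = 0.798). Single libraries decided its size. Without WT MZ replicate 2 it was 0.055 in MZ and 0.16 over both, without WT MZ replicate 1 it was 0.77 and 0.52, and without cKO FO replicate 1 or 2 it was 0.39 or 0.13 in FO. For Bcl2a1d it was 0.54 in MZ and 0.68 in FO, and 0.61 over both (95% interval -0.03 to 1.25, limma adjusted p = 0.757), and cKO and WT overlapped in FO. The value of Bcl2a1d in FO was 0.11 without cKO FO replicate 2, 1.25 without cKO FO replicate 1 and 0.44 without WT FO replicate 1, and over both subsets it ranged from 0.32 to 0.89 as each library was left out. In MZ the cKO and WT libraries did not overlap for 3 members, Bcl2a1b, Bcl2a1d and Bcl2l1, and for 34.5% of all genes, and in FO for 1 member, Bcl2a1b, and for 24% of all genes.

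For the other members the intervals over both subsets bound the difference between the cKO and WT libraries, whatever its source. Bax differed by 0.07 (95% interval -0.10 to 0.24), Bak1 by 0.01 (-0.32 to 0.34), Mcl1 by -0.01 (-0.34 to 0.31) and Bcl2 by 0.11 (-0.19 to 0.40), so that for these 4 a change of 1.5-fold, or 0.58 on the log2 scale, lies outside the interval. The BH3-only genes were less well bounded. Bcl2l11 differed by 0.10 (-0.45 to 0.65), Bbc3 by 0.21 (-0.36 to 0.78) and Pmaip1 by 0.35 (-0.63 to 1.32).

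**Figure D4:**
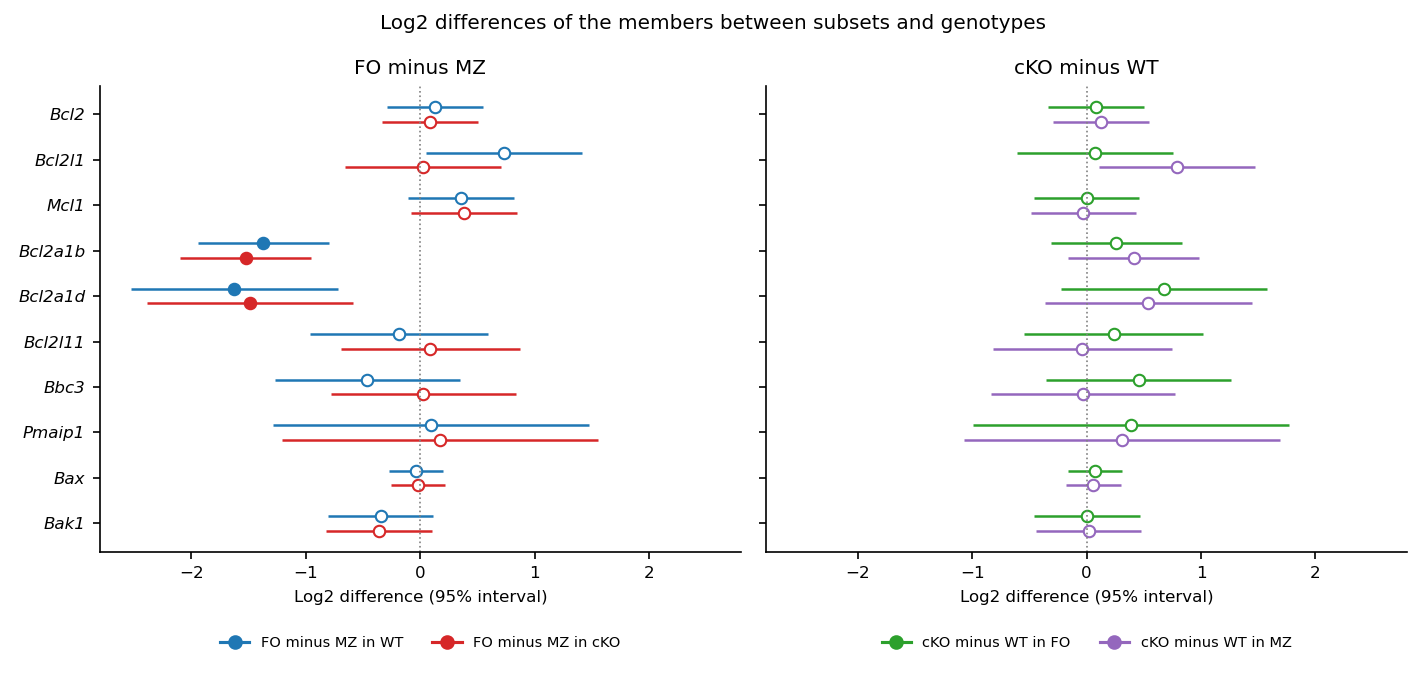
Log2 differences of the 10 genes with 95% intervals, FO minus MZ within WT and within cKO on the left and cKO minus WT within FO and within MZ on the right, with filled points for genes called by limma (adjusted p no higher than 0.05, change of 1.5-fold or more). Only Bcl2a1b and Bcl2a1d are called, between the subsets, at -1.37 and -1.63 in WT and -1.52 and -1.49 in cKO.

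Beyond the members, 7 lists held genes of the death pathways, their regulators, p53 targets and immediate early genes. Of the 87 genes tested in them, 22 (25.3%) were called between the subsets over both genotypes, 16 higher in MZ and 6 in FO. This stood beside 18.4% of all genes and 2 of the 10 members. The lists were chosen with earlier results of these data known. Of 18 further genes grouped here with the family, not all of them members in the strict sense, 12 were tested. Over both genotypes 5 were called higher in MZ and 2 higher in FO, and 5 did not pass. The median of the 12 was -0.28, beside 0.0045 for all genes. Bik, Bok, Bcl2l10 and the other Bcl2a1 copies were below the filter. Bmf, a BH3-only protein held on the cytoskeleton until it is released, was at 1555 to 2190 normalized counts in the FO and 417 to 765 in the MZ libraries, a difference of 1.63 (standard error 0.079, limma adjusted p = 1.23e-05). Bid, the BH3-only protein that links death receptors to mitochondria, went the other way, with 1211 to 1555 in FO and 3512 to 4186 in MZ, a difference of -1.60 (standard error 0.095, adjusted p = 2.87e-05). For both genes the FO and MZ ranges were far apart, and these calls held under every alternative.

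Bcl2l2, which encodes the antiapoptotic Bcl-w, was higher in MZ (difference -0.62, limma adjusted p = 0.00116), and without WT FO replicate 1 it was -0.58, just under 1.5-fold. Bcl2l12 differed by -0.64 and Bcl2l15 by -3.39, the latter from 0.951 to 5.03 normalized counts in FO against 22.7 to 30.9 in MZ. Bcl2l14 differed by -1.32 (limma adjusted p = 0.0279) at only 2.99 to 42.3 normalized counts, a call that was lost without any 1 of the MZ or cKO FO libraries (adjusted p 0.0573 to 0.0811). Bnip3, a mitophagy receptor, was higher in FO by 0.96 (adjusted p = 0.00657).

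Downstream of the mitochondria, 6 of 17 genes had a limma adjusted p of at most 0.05 over both genotypes. Most of these changes stayed under 1.5-fold. Of 17 genes of the apoptosome, of mitochondrial release and of the caspases, 1 was called, Endog, a mitochondrial nuclease, with a difference of -0.63 (limma adjusted p = 0.039) that was lost without any 1 of the libraries WT FO replicate 2, WT MZ replicate 1 and the 4 of cKO (adjusted p 0.0705 to 0.136). Of 9 inhibitor of apoptosis genes, 8 were tested, and in WT 1 was called higher in FO and 4 in MZ. Over both genotypes none was called higher in FO and 4 were called higher in MZ. Birc5, which encodes survivin and serves mitosis as well as survival, differed by -2.59 (standard error 0.451, limma adjusted p = 0.00376), with 20.96 to 50.4 normalized counts in FO and 98.0 to 300 in MZ. The other 3 were Naip6 (-1.64), Naip5 (-1.505) and Naip2 (-1.03), near-identical copies known as sensors of bacterial proteins, whose shares of reads are uncertain.

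In the death receptor pathway 1 of 10 genes was called in each direction. Mlkl, which carries out necroptosis, had 6.99 to 10.1 normalized counts in FO and 45.8 to 66.1 in MZ (difference -2.54, limma adjusted p = 0.000266). Tnfrsf10b, the mouse TRAIL receptor, was at 43.8 to 72.8 in FO and 6.34 to 27.0 in MZ (difference 1.76, adjusted p = 0.0149), and the call was lost without cKO FO replicate 1 (0.0521) or cKO MZ replicate 2 (0.0529).

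Of 18 regulators of Bcl2 family proteins, 17 were tested and 1 was called in each direction. Pim1, a kinase that phosphorylates and disarms the BH3-only protein Bad, was higher in MZ (difference -0.99, limma adjusted p = 0.00675), with 2416 to 3824 normalized counts in FO and 4509 to 8083 in MZ. Foxo1, a transcription factor that can activate Bcl2l11, was higher in FO by 0.67 (adjusted p = 0.000271), at 7193 to 8123 against 4640 to 5175, while Bcl2l11 itself overlapped between the subsets as given above. Of 14 genes known as p53 targets or regulators, 11 were tested, 2 were called higher in MZ and 1 in FO. Cdkn1a, a cell cycle inhibitor, was higher in FO by 2.26 (adjusted p = 0.00165), Zmat3 differed by -1.03 (adjusted p = 0.000551), and Sesn2 by -0.87 (adjusted p = 0.0494), a call that was lost without any 1 library other than WT FO replicate 1 (adjusted p 0.0502 to 0.146).

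Of 12 immediate early genes, which record recent stimulation, 2 were called higher in MZ and 1 in FO. Egr2 differed by -1.20 (limma adjusted p = 0.00344) and Ier2 by 0.83 (adjusted p = 0.000466). Jun differed by -0.84 (adjusted p = 0.0426), a call that was lost without WT FO replicate 2, WT MZ replicate 1 or any 1 of the cKO libraries (adjusted p 0.056 to 0.129). Some of these calls also turned on the processing. Quantile normalization put Bcl2l2 (-0.52), Bcl2l12 (-0.53) and Foxo1 (0.53) under 1.5-fold, and without the filter on low values the adjusted p was 0.0516 for Bcl2l14, 0.0572 for Endog, 0.0712 for Sesn2 and 0.061 for Jun. Quantile normalization also ended the calls of Endog (0.138) and Sesn2 (0.0894), and edgeR that of Sesn2 (0.0638). None of the genes of these 7 lists was called between cKO and WT in MZ, in FO or over both subsets.

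**Figure D5:**
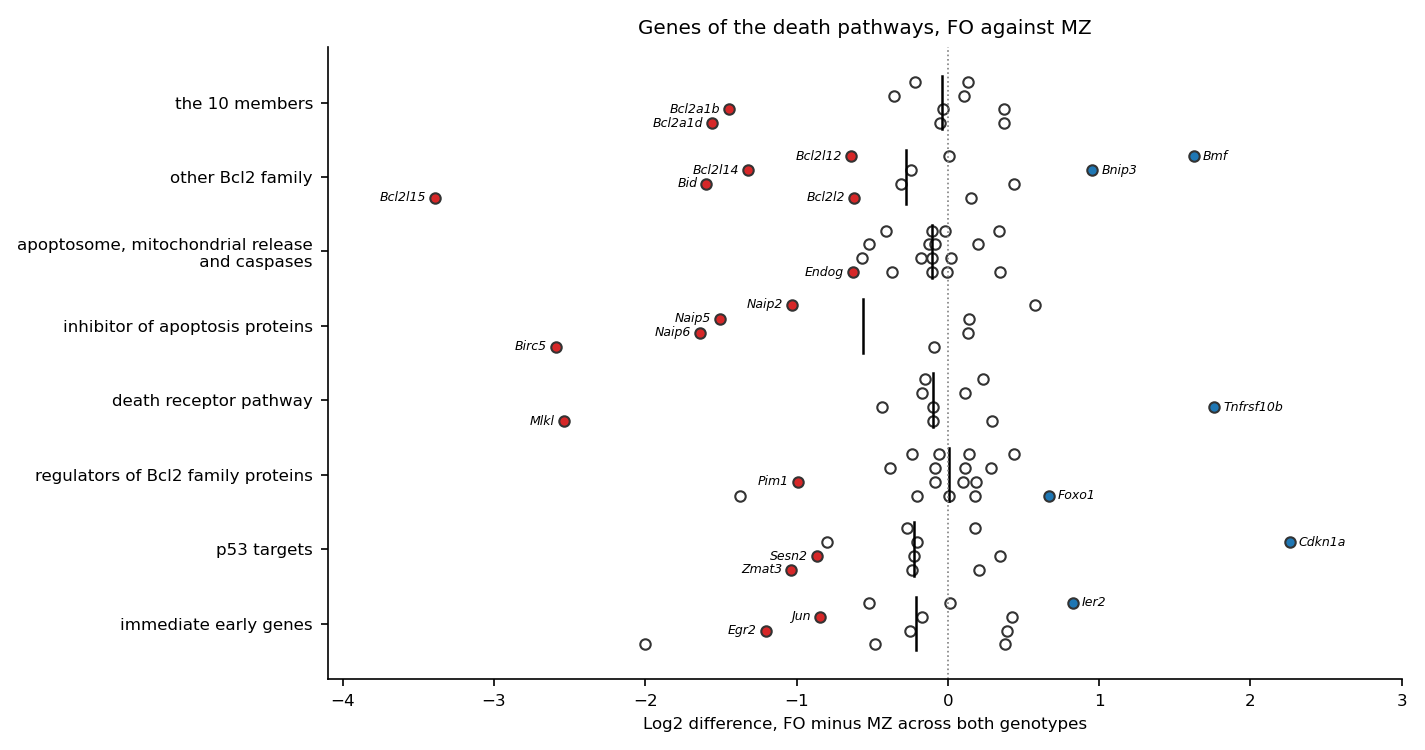
Log2 difference FO minus MZ over both genotypes of the 10 members and of the tested genes of 7 lists, 1 point per gene. The lists hold genes of the death pathways, their regulators, p53 targets and immediate early genes. A black line marks each list's median. Coloured, named points mark genes called by limma (red, higher in MZ, and blue, higher in FO). Bcl2l15 at -3.39 and Cdkn1a at 2.26 are the outermost called genes, and most points of the caspase list lie close to 0.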

How the data were processed

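RNA of FO and MZ B cells sorted from spleens of both genotypes was sequenced by the authors as ribosomal RNA-depleted libraries of 50-base single-end reads, aligned with HISAT2 to mm10, counted on genes (featureCounts and HTSeq are both named) and normalized with DESeq2. The deposited table holds normalized counts, that is counts divided by each library's size factor, also called signal here, and reads were whole for 100% of the values (within 0.001). After 256343 blank lines were left out, 27928 genes remained, of which 27872 had coordinates in GENCODE M21 (GRCm38).

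Log2(normalized count + 1) of the 14761 genes with a mean of at least 10 was fitted with limma 3.58.1 (lmFit, and eBayes with trend) in R 4.3.3, as 4 group means of the 8 libraries, because the values are not raw counts. Genes were called at an adjusted p of at most 0.05 and 1.5-fold, and intervals are at 95%. The same fit gave FO minus MZ and cKO minus WT within each group, over both, and their interaction. Alternatives were a pseudocount of 0.5, no filter, quantile normalization, only the 4 libraries compared, a replicate block, DESeq2 1.42.0 and edgeR 4.0.16 on recovered reads, no fold cutoff and each library left out. The fits were tested on simulated data. Exons of all transcripts of a gene were merged for its length. The members, the lists and the marker genes were chosen with earlier results of these data known. Named are the 10 members, the genes of the other lists called between FO and MZ over both genotypes (at most 6 in each list and direction) or between cKO and WT, list genes below the filter, Gtf2i and 4 markers. Reads on genes numbered 24109748 in the median library. The 8 ATAC-seq samples were not analysed here.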

Additional observations from a re-analysis of the deposited data

How the results depend on the processing

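Over both genotypes the calls of Bcl2a1b (log2 difference between -1.63 and -1.27) and of Bcl2a1d (-1.84 to -1.27) held under every alternative run. In WT, both calls were lost with only the 4 libraries compared, leaving 0 members called and 1014 genes in place of 1776. In cKO, 1 member was called, in place of 2, with no filter on low values and with quantile normalization. Leaving out each library in turn gave 1 to 2 members called in WT and in cKO, 1073 to 2119 genes in cKO, 4 to 11 genes between cKO and WT in FO and 8 to 17 over both subsets. Without a fold cutoff 4926 genes passed between FO and MZ over both genotypes. Between cKO and WT, DESeq2 called 47 genes in MZ, 24 in FO and 69 over both subsets, against 5, 10 and 16, the 4 libraries alone called 4 in FO, and no setting called a member. The cause of these shifts was not tested. Same-numbered replicates deviated together in WT FO, WT MZ and cKO FO (correlations of 0.16 to 0.59) but not with cKO MZ (-0.30 to -0.0015), so the numbers were not taken as pairs. The replicate block called 1973, 2262 and 2861 genes and 2 members between the subsets in WT, in cKO and over both, and 0 members between genotypes, and a replicate block with the numbers of cKO MZ exchanged, chosen after seeing the data, called 12, 16 and 37 genes between genotypes in MZ, in FO and over both. Of 64 member differences not called, 40 changed sign under some alternative and 1, Mcl1 in WT, gained a call. Of the 22 other genes called between FO and MZ, 14 kept their call throughout and none changed sign.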
